A study of Caenorhabditis elegans with 2 samples.

Results

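The genes for the proteins of the cytosolic ribosome were examined for binding of EGL-43, a zinc finger transcription factor of the EVI1 family, in *C. elegans* L3 larvae. They were chosen by name, as all protein-coding genes whose name starts with *rps-* (small subunit) or *rpl-* (large subunit) in the Ensembl annotation of WBcel235, the assembly that ce11 denotes. This gave 78 of 19985 protein-coding genes, 31 of the small and 47 of the large subunit. The data are 2 lists of ChIP-seq peaks, the places where DNA precipitated with an antibody gives a local excess of reads. Both came from one strain, *egl43-gfp(zh136)*, in which the endogenous gene carries *gfp*. The larvae hatched overnight at 20°C, grew for 27 h at 25°C, were fixed, by the protocol given for both replicates, with formaldehyde and EGS and were precipitated with the anti-GFP antibody ab290. The replicates came from populations grown independently, and the names of the lists abbreviate the fixative as E for replicate 1 and as EGS for replicate 2. There was 1 condition, so no groups could be compared, the sources used here name no control library for the background, and chromatin of whole larvae does not tell in which cells EGL-43 was bound. The lists hold 8394 and 10925 peaks and carry no read totals, so the depth is unknown. The difference between the replicates is therefore the only error given for a fold enrichment, and the intervals given for shares cover counting error only. These intervals treat genes as independent, although neighbouring genes can share a region, so their overlap is a description and not a test.

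The ribosome consists of a small subunit, which reads the mRNA, and a large subunit, which joins the amino acids, and each subunit is built from ribosomal RNA and many small proteins. Nearly all of these proteins are needed in equal numbers in every growing cell, and their genes are short and among the most strongly transcribed of the genome. Many *C. elegans* mRNAs, including those for most ribosomal proteins, are trans-spliced: the first bases of the transcript are replaced by a spliced leader, so that an annotated gene start often marks the splice acceptor and transcription begins further upstream.

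The DNA under the summits is shown first, since short words recurred in it. The sequences are 101 bases centred on the midpoint of the replicates' summits, read 5′ to 3′ on the strand of the gene from the RefSeq genome of WBcel235. Capitals mark matches to 4 words of 8 bases, GCGAGACC, ACACTCGT, TACGGTAA and ATACTCAG, or to their reverse complements. The first set holds the 6 windows with the highest fold enrichment among those free of annotated exons, and those of *rps-28*, *rpl-15* and *rpl-35* have none of the words:
rpl-3 (chrIII:3867536-3867636, plus strand): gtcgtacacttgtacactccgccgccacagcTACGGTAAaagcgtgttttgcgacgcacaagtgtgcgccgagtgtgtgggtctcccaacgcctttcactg
rps-28 (chrIV:1659213-1659313, plus strand): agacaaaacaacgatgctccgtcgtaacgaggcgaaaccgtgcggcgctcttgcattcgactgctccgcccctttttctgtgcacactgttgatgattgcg
rpl-21 (chrIII:8130490-8130590, minus strand): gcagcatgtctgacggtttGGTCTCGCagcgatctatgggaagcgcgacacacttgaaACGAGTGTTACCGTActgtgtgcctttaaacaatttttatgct
rpl-15 (chrIV:654869-654969, minus strand): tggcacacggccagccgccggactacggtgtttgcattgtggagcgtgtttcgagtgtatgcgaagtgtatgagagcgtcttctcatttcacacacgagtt
rpl-11.2 (chrX:2242939-2243039, minus strand): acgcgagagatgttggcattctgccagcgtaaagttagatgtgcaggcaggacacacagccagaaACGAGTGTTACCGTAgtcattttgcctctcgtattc
rpl-35 (chrIII:7854656-7854756, plus strand): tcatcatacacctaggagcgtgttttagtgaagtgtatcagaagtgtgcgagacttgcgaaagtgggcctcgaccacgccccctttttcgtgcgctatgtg
A second set was chosen to show the words alone, together or side by side:
rpl-6 (chrIII:7208045-7208145, plus strand): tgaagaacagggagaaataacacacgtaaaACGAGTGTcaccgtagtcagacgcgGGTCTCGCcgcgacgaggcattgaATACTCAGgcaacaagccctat
rps-23 (chrIV:12391257-12391357, minus strand): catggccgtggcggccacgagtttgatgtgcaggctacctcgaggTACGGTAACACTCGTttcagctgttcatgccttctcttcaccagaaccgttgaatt
rpl-29 (chrIV:13881910-13882010, plus strand): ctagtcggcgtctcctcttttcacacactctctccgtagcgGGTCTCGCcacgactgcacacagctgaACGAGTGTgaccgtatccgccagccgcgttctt
rpl-34 (chrIV:12268512-12268612, plus strand): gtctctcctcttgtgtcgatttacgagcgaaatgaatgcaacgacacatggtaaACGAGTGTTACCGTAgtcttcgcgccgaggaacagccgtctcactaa
rps-8 (chrIV:7314050-7314150, minus strand): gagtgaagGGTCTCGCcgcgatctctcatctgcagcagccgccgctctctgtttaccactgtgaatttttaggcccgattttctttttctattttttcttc
The window of *rpl-18* is shown because it holds a pair of the words, centred at -124 bp from the start, although neither list has a peak there:
rpl-18 (chrIV:13777691-13777791, plus strand): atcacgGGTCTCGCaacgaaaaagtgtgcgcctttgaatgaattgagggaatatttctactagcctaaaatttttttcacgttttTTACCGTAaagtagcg

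A region was called shared when peaks of both replicates overlapped by at least 1 bp, and it was assigned to a gene when it touched the body or the 500 bp upstream of the annotated start. Of the 78 ribosomal protein genes, 61 carried at least 1 shared region (78.2%, with a 95% Clopper-Pearson interval of 67.4 to 86.8%), against 18.3% of all protein-coding genes. Ribosomal protein genes are short, with a median length of 753.5 bp, against 2026 bp for all protein-coding genes. Among the 9871 protein-coding genes of at most 2000 bp, the share with a shared region was 11.6%. In the lists taken singly, 61 of the 78 genes had a peak of replicate 1, against 19.7% of all protein-coding genes, and 68 had a peak of replicate 2, against 23.8%. The window of 59 of the 61 genes held peaks of both replicates themselves, while the merged region reached the window of *rpl-27* with its replicate 1 peak only and that of *rps-18* with its replicate 2 peak only.

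The subunits had similar shares. A shared region lay at 35 of 47 genes of the large subunit (74.5%, interval 59.7 to 86.1%) and at 26 of 31 genes of the small subunit (83.9%, interval 66.3 to 94.5%), and these intervals overlap. Peaks in one list only were found at 6 genes of the large and 3 genes of the small subunit. The share of all protein-coding genes with a peak in 1 list only is not given. Of all protein-coding genes, 19.7% had a peak of replicate 1, 23.8% a peak of replicate 2 and 17.9% a peak of each in the window. No peak at all was found at 6 genes of the large and 2 genes of the small subunit.

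Other genes of translation were less uniform. The mitochondrial ribosome is built from a separate set of nuclear genes, *mrps-* and *mrpl-*. Of these 70 genes, 16 had a shared region (22.9%, interval 13.7 to 34.4%), against 78.2% of the cytosolic genes. Of the further components of the cytosolic ribosome that do not carry an *rps-* or *rpl-* name, 3 of 6 annotated genes had one. These were *ubl-1* and *ubq-2*, which encode a ribosomal protein fused to a ubiquitin-like or a ubiquitin part, and *rack-1*, which encodes a scaffold protein on the small subunit. At *ubl-1*, enrichment over background was 4.31-fold in replicate 1 and 5.77-fold in replicate 2. At *ubq-2* it was 3.53 and 4.0, and at *rack-1* 3.25 and 3.80. The genes for the stalk proteins *rla-0*, *rla-1* and *rla-2* had no shared region. The list of translation factors held 12 genes and was drawn broadly, with *icd-1*, *icd-2* and *tct-1* in it. Of these 12, 8 had a shared region (66.7%, interval 34.9 to 90.1%), *icd-1* and *icd-2* among them. Another was *eef-1A.2*, which encodes the factor that brings aminoacyl-tRNA to the ribosome, with a fold enrichment of 7.96 and 8.18. Among 33 genes generally known for strong expression (actins, tubulins, glycolysis, ATP synthase, chaperones), 23 had one (69.7%, interval 51.3 to 84.4%). These 33 are not matched in length to the ribosomal protein genes, with a median of 1569 bp and a maximum of 3793 bp. The summit lay in the upstream 500 bp in 39.4% of all 33, against 71.8% of all ribosomal protein genes. The intervals of these last lists overlap that of the ribosomal protein genes, so that a high share was not shown to be particular to the ribosome. No expression was measured in the series, and the part of transcription level in these shares was not tested.

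**Figure D1:**
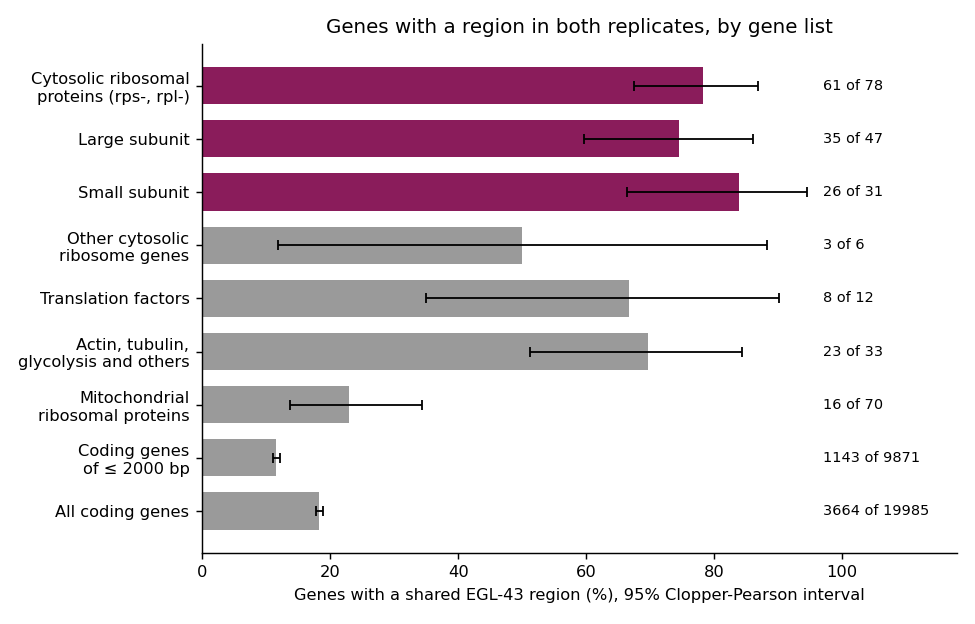
Share of genes with an EGL-43 region in both replicates (percent, x axis) for each list of genes, with the ribosomal protein genes on top. Bars are shares, lines are 95% Clopper-Pearson intervals of counting error, and the numbers give genes with a region of all genes of the list. The ribosomal protein genes reach 78.2%, the mitochondrial ribosomal protein genes 22.9% and all protein-coding genes 18.3%.

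Enrichment at the ribosomal protein genes was moderate, with a narrower interquartile range than over all protein-coding genes with a shared region. The lists give for each peak a fold enrichment, the reads at the summit over the background that the peak caller MACS2 estimated, and where a gene had several shared regions the strongest was used. It ranged between 2.53 and 7.69 in replicate 1 (median 4.34) and between 2.46 and 7.91 in replicate 2 (median 4.52). The lower of the replicate values had a median of 4.01 (interquartile range 3.45 to 4.75) at the ribosomal protein genes, against 4.06 (3.21 to 5.75, at most 19) over all protein-coding genes with a shared region. A narrow range was not particular to these genes, since the mitochondrial ribosomal protein genes had a median of 3.17 (3.01 to 3.66). The median was 5.77 (4.22 to 7.55) in the list of translation factors and 4.60 (4.08 to 7.13) at the genes known for strong expression. Of the 61 genes, 38 had values above 3.69, the median of all 7259 shared regions of the series, and 0 reached 7.26, their 90th percentile. So these genes were bound often, and their regions were of ordinary strength.

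The large subunit genes had medians of 4.60 in replicate 1 and 4.56 in replicate 2 (ranges 2.53 to 7.56 and 2.46 to 7.91). The small subunit genes had medians of 3.95 and 4.38 (ranges 2.70 to 7.69 and 2.77 to 7.17). The ranges overlap almost fully in both replicates. Across the 61 genes, the log2 ratio of replicate 2 to replicate 1 was 0.07 in the median with an SD of 0.25, against 0.13 and 0.31 over all shared regions. Only *rps-11* (4.09 in replicate 1 and 2.87 in replicate 2) and *rpl-1* (6.46 and 4.59) left the range of -0.49 to 0.75 that holds 95% of all shared regions.

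**Figure D2:**
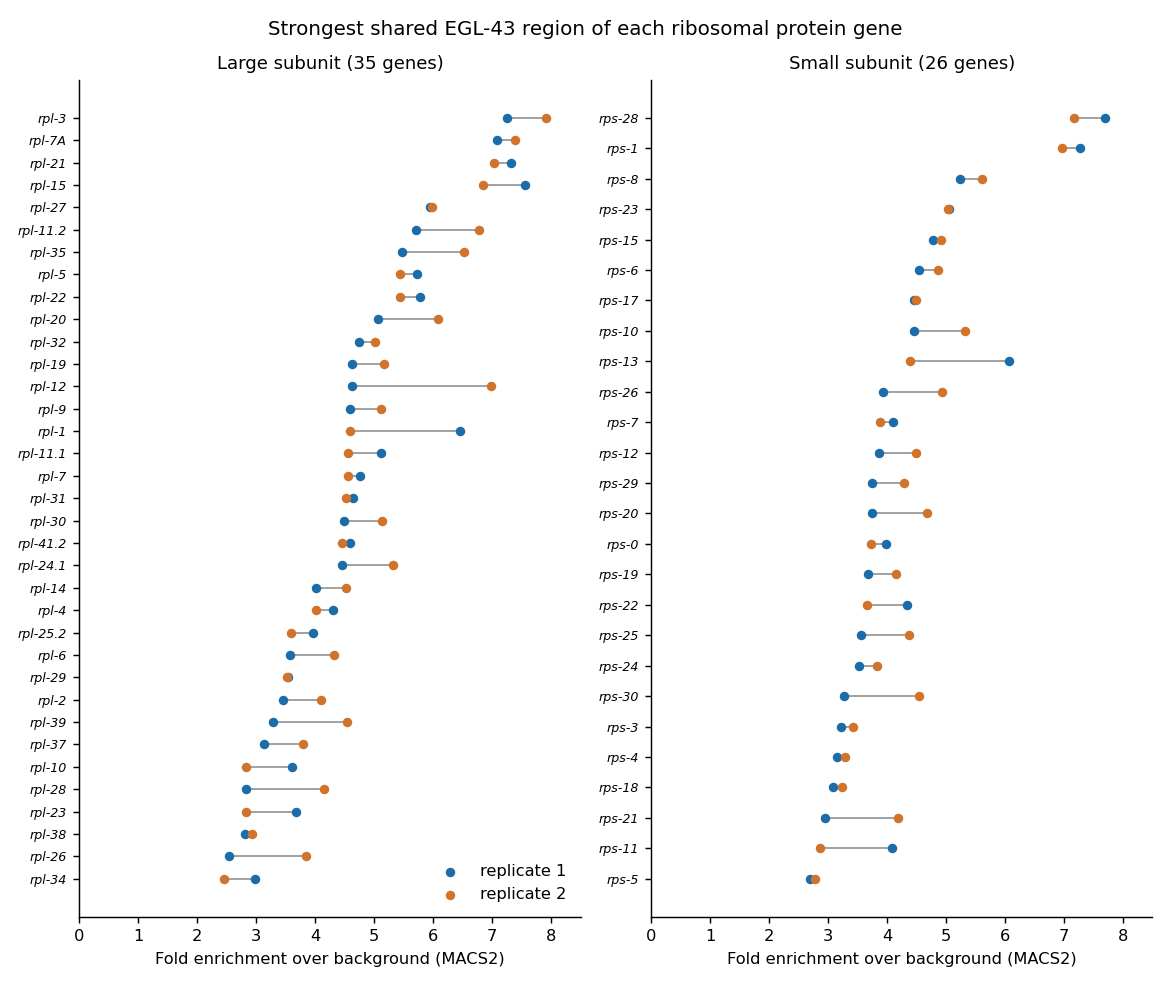
Fold enrichment over background (x axis) at the strongest shared region of each ribosomal protein gene, in replicate 1 (blue) and replicate 2 (orange), with a line joining the replicates of a gene and genes sorted by the lower value. The medians are 4.34 in replicate 1 and 4.52 in replicate 2, and *rpl-3*, *rpl-7A*, *rpl-21*, *rpl-15*, *rps-28* and *rps-1* stand at the top with values of 6.83 to 7.91.

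The highest values belonged to proteins from different parts of the ribosome. The region of *rpl-3*, whose product reaches towards the peptidyl transferase centre, reached 7.25 in replicate 1 and 7.91 in replicate 2 and ranked 729 among all shared regions. It lies at chrIII:3867463-3867704 (WBcel235), outside the window of any other coding gene, with summits at -271 and -265 bp, where negative distances are upstream of the annotated start. At *rps-28*, which encodes a small subunit protein near the exit of the mRNA channel, the values were 7.69 and 7.17, with summits at -441 and -415 bp. *rpl-7A* reached 7.08 and 7.39, with summits at only -48 and -52 bp, and 31.7% of the 36-base words in its body and upstream 500 bp occur more than once in the genome. *rpl-21* had values of 7.32 and 7.03 and both summits at -313 bp. *rps-1*, for a protein of the small subunit platform, had 7.27 and 6.97, and *rpl-15* had 7.56 and 6.83. These 6 genes lead the plot of fold enrichment by gene, and the next by its lower value, *rpl-27*, had 5.95 and 5.99.

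The particle of 5S ribosomal RNA with the products of *rpl-5* and *rpl-11* joins the large subunit as a unit, and all 3 genes for it were bound. *rpl-5* had 5.72 in replicate 1 and 5.44 in replicate 2. *rpl-11.2* had 5.71 and 6.77, and its paralogue *rpl-11.1* had 5.11 and 4.56. Of genes whose products surround the exit of the tunnel for the nascent chain, *rpl-35* had 5.47 and 6.53, *rpl-19* 4.62 and 5.17, *rpl-31* 4.64 and 4.52 and *rpl-39* 3.27 and 4.54. In the same group *rpl-26* was among the 5 lowest genes, with 2.53 and 3.84, and *rpl-17* had a peak in replicate 2 alone (3.28). A shared function in the subunit thus went with values across most of the range.

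In the small subunit, *rps-23*, whose product sits at the decoding centre, had 5.05 in replicate 1 and 5.03 in replicate 2, which are nearly equal. For *rps-6*, the subunit's known substrate of S6 kinase, the values were 4.54 and 4.86. *rps-3* and *rps-30*, whose products line the entry of the mRNA channel, had 3.22 and 3.42, and 3.27 and 4.54. *rps-2*, from the same place in the subunit, had a peak only in replicate 2, with a fold enrichment of 4.30.

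The other genes at the lower end were *rpl-23* (3.67 and 2.82), *rpl-38* (2.82 and 2.93), *rps-5* (2.70 and 2.77) and *rpl-34* (2.98 and 2.46). The values of *rpl-38* and *rps-5* differed little between the replicates, while at *rpl-26* the log2 ratio was 0.60, the highest of all 61 genes. At *rps-5* the strongest region does not lie in the promoter: its summits are 803 bp past the start, in exon 4, and 998 bp past the start, beyond the gene, and the region also touches the window of the neighbour *pigk-1*. A weaker shared region of *rps-5*, with 2.58 and 2.35, has its summits at -342 and -351 bp. *rps-12* was the other gene with 2 shared regions, one upstream (3.87 and 4.49) and one in exon 3 (3.05 and 2.62).

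**Figure D3:**
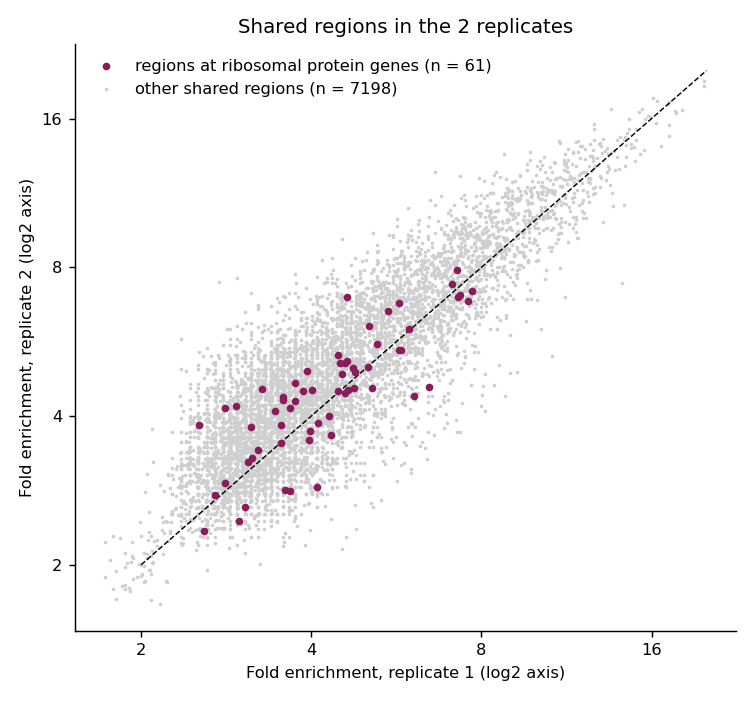
Fold enrichment of every shared region in replicate 1 (x axis) and replicate 2 (y axis), both on log2 axes, with the 61 regions at ribosomal protein genes in purple, the 7198 others in grey and the line of equal values dashed. The purple points lie along the line within the grey cloud, between 2.35 and 7.91, and none is among the strongest regions of the series.

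The midpoint of the replicates' summits lay at a median of -290.5 bp from the annotated start (interquartile range -352 to -249 bp), and in 43 of the 61 genes it lay between 200 and 400 bp upstream. It fell within the 500 bp upstream in 56 genes (91.8% of the 61), against 51.6% of all protein-coding genes with a shared region, 70.2% of those of at most 2000 bp and 75% of the mitochondrial ribosomal protein genes. It did so in all 8 bound genes of the translation factor list and in all 3 other bound genes of the cytosolic ribosome. Among the bound genes known for strong expression it did so in 13 of 23. The window of assignment favours such positions in short genes, so the comparison was repeated within the upstream 500 bp. There the ribosomal protein genes had a median of -291.5 bp and an interquartile width of 97.4 bp, against -198.3 bp and 184 bp for genes of at most 2000 bp and -198.5 bp and 197 bp for all other protein-coding genes. The mitochondrial ribosomal protein genes had their median at -165 bp, with an interquartile width of 77.8 bp over 12 genes. The 13 genes known for strong expression had theirs at -237 bp, with a width of 154 bp. The medians were -295 bp in the large and -269.8 bp in the small subunit, and the interquartile ranges, -355 to -249 bp and -341 to -244 bp, overlap. The replicates' summits at a gene were a median of 14 bp apart, against 25 bp over all shared regions. In 57 genes they were at most 50 bp apart, so the offset from the start is far larger than the error of its measurement.

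**Figure D4:**
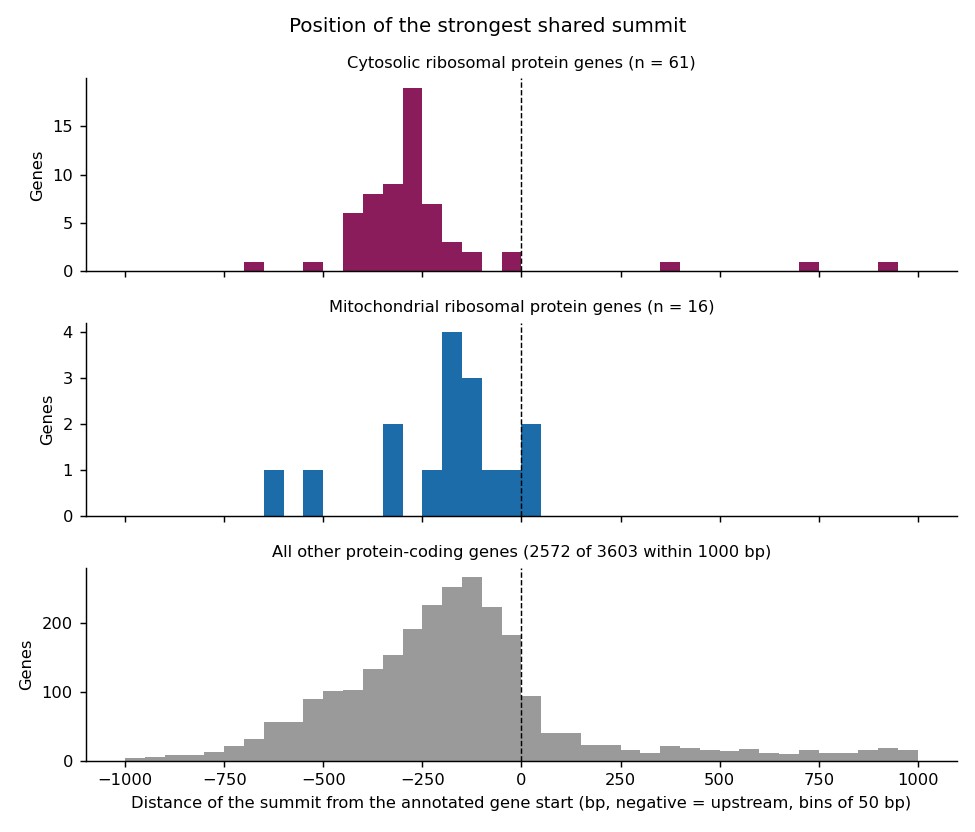
Distance of the strongest shared summit from the annotated gene start (x axis, bp, negative upstream, bins of 50 bp) and number of genes (y axis), for cytosolic ribosomal protein genes (top), mitochondrial ribosomal protein genes (middle) and the other protein-coding genes with a summit within 1000 bp (bottom, 2572 of 3603). The dashed line is the annotated start. The top panel peaks near -290.5 bp, and the bottom panel is wider and peaks closer to the start.

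A few genes departed from this position. At *rpl-12*, whose product forms the base of the stalk, the summits lay at 5 bp (inside exon 1) in replicate 1 and at -21 bp in replicate 2, with a fold enrichment of 4.62 and 6.97. At *rpl-19* they lay in intron 1, 357 and 366 bp past the start, but another annotated transcript of the gene starts further on, and from the nearest transcript start their midpoint was at -250.5 bp. The region of *rpl-27* was 738 and 742 bp past the start, beyond the gene and nearest to the start of *egl-30*, and that of *rps-18* was at -682 and -672 bp, nearest to *sec-61.A*. At *rps-29* the summits were at -528 and -515 bp, nearest to *snt-2*.

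The annotated start of a ribosomal protein gene directly followed the bases AG in 66 of 78 genes (84.6%), against 27.6% of all protein-coding genes and 77.1% of the mitochondrial ribosomal protein genes. AG is the end of a splice acceptor. The longer acceptor word TTTTCAG, searched on the strand of the gene in the last 25 bp before the start, was found in 28 of them (35.9%), against 24.3% of the mitochondrial ribosomal protein genes and 8.71% of all protein-coding genes. For most of these genes the distances above are thus measured from a base with the letters of a splice acceptor before it, and the distance from the start of transcription was not measured.

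The regions were also short. Their length had a median of 248 bp (interquartile range 224 to 292 bp), against 365 bp (274 to 523 bp) for the other 7198 shared regions. Only 6 of the 61 regions exceeded 400 bp, against 3055 of the others. Short regions were not particular to these genes. The strongest regions of the mitochondrial ribosomal protein genes had a median length of 223 bp. Those of the other genes of the cytosolic ribosome had 221 bp. The median was 311 bp at genes of at most 2000 bp, 369.5 bp in the list of translation factors and 537 bp at the genes known for strong expression. GC content in the 101 bases around the summits was 51.0% at ribosomal protein genes, against 45.6% at the other shared regions.

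Genes lie densely in this genome, and the assignment to a ribosomal protein gene was often not exclusive. In 39 of the 61 genes the strongest region also touched the window of another protein-coding gene, and in 35 the ribosomal protein gene had the start nearest to the summit. With every shared region given only to the protein-coding gene with the nearest start, 36 of the 78 genes (46.2%) kept one, against 14.6% of all protein-coding genes. The 22 genes with no other coding gene at their region had a median lower fold enrichment of 3.94 and a median distance of -293.5 bp, against 4.39 and -287 bp for the 39 genes with a neighbour. In *rpl-21* the neighbour is C14B9.10, in *rpl-22* the securin gene *ify-1* and in *rpl-30* the poly(A)-binding protein gene *pab-1*. In some places the neighbour is itself ribosomal. The divergent pairs *rps-10* with *rpl-24.1* (4.46 in replicate 1 and 5.32 in replicate 2) and *rpl-39* with *rps-30* (3.27 and 4.54) each share a single region, and *rpl-28* shares one with the mitochondrial gene *mrpl-49* (2.82 and 4.15).

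Genes with a peak in one list only had positions like those of the bound genes. The 8 genes with a peak of replicate 2 alone had fold enrichments of 2.48 to 4.60, within the range of the genes with shared regions. The highest were *rpl-33* (4.60 at -389 bp), *rps-2* (4.30 at -257 bp), *rps-9* (4.23 at -195 bp) and *rpl-13* (3.90 at -257 bp). *rpl-17* had 3.28 at -382 bp and *rpl-36.A* 2.48 at -296 bp. A single peak of 3.22 between *rpl-36* and *rps-14* lay at -378 bp from one and -285 bp from the other. The only gene with a peak of replicate 1 alone was *rpl-24.2*, with 3.0 at -133 bp. At these 9 genes the other list held no peak past its cutoff. Over all protein-coding genes, too, more had a peak of replicate 2 (23.8%) than of replicate 1 (19.7%).

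In the remaining 8 genes, *rpl-16*, *rpl-18*, *rpl-25.1*, *rpl-41.1*, *rpl-42*, *rpl-43*, *rps-16* and *rps-27*, neither list had a peak in the window. The nearest peak to *rpl-43* was at -736 bp, in replicate 2, with a fold enrichment of 3.74, and the nearest to *rps-16* was at -1725 bp. At *rpl-18* and *rps-27* the nearest peaks were 5873 and 6602 bp past the start. These 8 genes and the 9 with a peak in one list were much like the 61 bound genes in length, with medians of 684 and 756 bp in the 17 and the 61 genes. An upstream neighbour closer than 500 bp was found at 4 of the 17 and at 23 of the 61. Sequence that occurs more than once in the genome, where reads cannot be placed uniquely, was rare in both, with a median of 0% of 36-base words in the body and upstream 500 bp and a maximum of 2.65% in the 17 and 38.5% (*rpl-2*) in the 61.

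Some genes occur as numbered pairs, and these pairs differed. Both *rpl-11.1* and *rpl-11.2* were bound. *rpl-25.2* had a shared region with 3.96 in replicate 1 and 3.58 in replicate 2, and *rpl-25.1* had no peak. *rpl-41.2* had one with 4.59 and 4.46, and *rpl-41.1* had no peak in its own window, where the nearest peak was that of *rpl-41.2*, 822 bp past its start. *rpl-24.1* had a shared region and *rpl-24.2* a peak in replicate 1 alone. Within each of these last 3 pairs, one gene was called in both replicates and the other was not.

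Short words recurred under the summits of the ribosomal protein genes. They were read from these windows themselves, by the difference between their share there and their share under the other shared summits, so that their frequency in the windows is a description and supports nothing. GCGAGACC, searched with its reverse complement GGTCTCGC, was found in 19 of the 61 windows (31.1%), against 0.972% of the 7198 other windows. ACACTCGT (reverse ACGAGTGT) was found in 14 windows (23.0%), against 0.389%. TACGGTAA (reverse TTACCGTA) occurred in 13 (21.3%), against 0.264%, and ATACTCAG (reverse CTGAGTAT) in 11 (18%), against 0.278%. At least 1 of these words was found in 40 windows (65.6%), against 1.81%, and at least 2 in 15 windows (24.6%), against 0.0834%. They lay close to the summits, at median distances of 11.5, 18, 18.5 and 14.5 bp in the order above, which the choice of windows limits to 50 bp.

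ACACTCGT and TACGGTAA often overlapped by 1 base to form a single run of 15 bases, as in the windows of *rpl-21*, *rpl-11.2*, *rpl-34* and *rps-23* printed above. This run occurs 17 times in the genome, and 14 of these matches lie in shared regions, 9 of them in regions of ribosomal protein genes. The genes concerned are *rpl-1*, *rpl-11.2*, *rpl-19*, *rpl-21*, *rpl-24.1*, *rpl-34*, *rps-10*, *rps-13*, *rps-18* and *rps-23*, where *rpl-24.1* and *rps-10* share 1 region. They include both *rpl-21*, near the top of the range, and *rpl-34*, with the lowest value in replicate 2. At *rpl-6* and *rpl-29* the word ACGAGTGT occurs without TTACCGTA next to it. The run joins 2 words that were read from these windows, so its matches in regions of ribosomal protein genes are built in. No share for other runs of 15 bases is given beside it, and these counts are a description that supports nothing.

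The words were also counted in the 500 bp upstream of every gene. At least 1 of them was found at 40 of the 61 ribosomal protein genes with a shared region (65.6%), at 3 of the 17 without one (17.6%), at 1 of 70 mitochondrial ribosomal protein genes (1.43%) and at 5.59% of all protein-coding genes. By word, the shares of all protein-coding genes were 2.37% for GCGAGACC, 0.756% for ACACTCGT, 2.03% for TACGGTAA and 0.786% for ATACTCAG. Since the words were read from the summit windows of the 61 genes, most of which lie in the same 500 bp, the higher share at these genes than at any of the others is in part built in. Among the 22 genes with no other coding gene at their region, 16 had a word in the summit window, against 26 of the 39 with a neighbour. A match to these letters is not a binding site, and whether EGL-43 contacts them was not tested.

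Words known from other work were no more frequent under these summits than under others. AGATGAG (reverse CTCATCT), a site of the C-terminal zinc fingers of mammalian EVI1, was found in 2 of the 61 windows (3.28%), against 4.03% of the other shared windows, and in 5.96% of all upstream 500 bp. ACAAGATA (reverse TATCTTGT), a site of its N-terminal zinc fingers, was found in 0 windows, against 0.25%, and in 2.05% of all upstream 500 bp. TGACTCA (reverse TGAGTCA), the AP-1 site, was found in 1 window (1.64%), against 3.40%, and in 5.45% of all upstream 500 bp. GAGAGA (reverse TCTCTC) was found in 7 windows (11.5%), against 31.0%, and in 30.0% of all upstream 500 bp. The windows span 101 bases and the upstream stretches 500 bp, so the shares of these 2 kinds cannot be compared directly. None of the 4 words was more frequent in the windows of ribosomal protein genes than in the other windows of the same length. Over the upstream 500 bp, GAGAGA was found at 36.1% of the 61 ribosomal protein genes with a shared region and at 47.1% of the 17 without one, both above the 30.0% of all protein-coding genes.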

How the data were processed

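EGL-43::GFP ChIP-seq peaks were analysed in 2 replicates of 1 condition, grouped by their labels. The authors aligned reads to ce11 with BWA and called peaks with MACS2 on each replicate separately; no control library is named, and the MACS2 version is not given in the sources used here. The deposited fold enrichment is the ratio of reads at the summit to the estimated background. The deposited lists also hold −log10 of each p-value and q-value, used only for a threshold, and a score (10 times −log10 q, rounded down), which was not used. The lists precede the authors' steps of splitting, coverage thresholding and removal of blacklisted regions.

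Peaks overlapping by at least 1 bp were merged. A region took the highest value of its peaks in each replicate and was ranked by the lower replicate value. Genes came from Ensembl release 115 and sequence from RefSeq. The 4 words were those with the largest difference in share between windows of ribosomal protein genes and other windows, sharing no run of 6 bases with one already taken, and were chosen after seeing the data. Genes named with full values were the 10 highest, the 5 lowest and those with a peak in 1 list; all others were chosen after their values were seen. The genes and lists examined were chosen with earlier results of these data known. No test was used, since the design has no groups. The merging and assignment steps and the word counts were first tested on simulated data. Alternatives covered the overlap, the q-value, the gene window, the assignment and each replicate alone. Python 3.11.15, numpy 2.4.6, scipy 1.17.1 and matplotlib 3.10.9 were used.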

Additional observations from a re-analysis of the deposited data

How the results depend on the processing

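The numbers of ribosomal protein genes and of all protein-coding genes with a shared region changed by less than 1.5 times in 37 of 44 alternative counts. The exceptions were 2 settings. With the gene body alone, 7 ribosomal protein genes (8.97%, 3 small and 4 large subunit) kept a region, against 2413 protein-coding genes (12.1%). Most regions of ribosomal protein genes lie upstream, and in the body alone their share was below that of all protein-coding genes. With the nearest start only, 36 ribosomal protein genes (46.2%, 14 small and 22 large subunit) kept one, against 14.6% of all protein-coding genes. Each replicate alone gave 61 to 68 genes (25 to 29 small, 36 to 39 large), 3929 to 4748 protein-coding genes, median fold enrichments of 4.34 to 4.52 and median distances of -287 to -284 bp. A q-value of at most 1e-05 left 59 ribosomal protein genes (75.6%), against 17.4% of all protein-coding genes. An overlap of 50% or summits within 100 bp left 60 (76.9%), against 17.4% and 17.5%. With 2000 bp upstream, 66 (84.6%) had a region, against 25.2%. One alternative, which required each replicate's own peak in the window, was chosen after seeing the data. No paired analysis was possible because there was only 1 group and no test. The unknown depth, a background for which no control library is named and the whole-larva chromatin limit every value.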

Other observations

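Beyond the ribosomal protein genes, 1074 protein-coding genes hold at least 1 of the 4 words in their upstream 500 bp, and 281 of them (26.2%) had a shared region. Of the 47 with at least 2 of the words, 25 (53.2%) had one. The share over all protein-coding genes was 18.3%. These counts include neighbours such as C14B9.10 and *nfx-1*, whose windows hold the same regions from which the words were read. At 39 of the 61 ribosomal protein genes the strongest region also touched the window of another protein-coding gene. That gene was in some places itself ribosomal, and the count does not require a word in its upstream 500 bp. Only 6 of the 7198 other summit windows held at least 2 of the words. Regions counted again in this way were not removed, so these shares are a description and support nothing. The other genes in the lists of translation and strong expression with the highest values were *cyc-2.1*, which encodes cytochrome c, with a fold enrichment of 17.1 in both replicates, and *ubq-1*, the polyubiquitin gene, with 11.5 and 10.4. The summits at *cyc-2.1* lay 441 and 439 bp past the annotated start, and those at *ubq-1* 344 and 348 bp past it. The glyceraldehyde-3-phosphate dehydrogenase genes *gpd-1* to *gpd-4* and the myosin light chain genes *mlc-1* to *mlc-3* had no shared region.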
